A study of Danio rerio with 24 samples.

Results

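Transcripts were measured in the jaws of AB strain zebrafish larvae at 100 h post fertilization (hpf), 4 h after the start and 3 h after the end of a 1 h exposure to TCDD. TCDD (2,3,7,8-tetrachlorodibenzo-p-dioxin) is a persistent dioxin. Arrays were chosen by their titles: 3 arrays of larvae given 1 ng/ml TCDD in water from 96 hpf, against 3 arrays of larvae given 0.1% DMSO, the vehicle, over the same hour. These 6 arrays are part of 24, which form 8 groups of 3 (TCDD and vehicle at 1, 2, 4 and 12 h) from 3 independent time courses on 1-colour Affymetrix zebrafish arrays. Each array held RNA from 10 pooled jaws, so no value belongs to a single larva. The tissue called jaw was the head in front of the pectoral fin, freed of eyes and brain, and it therefore also holds skin, muscle, vessels and remaining nerve.

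The aryl hydrocarbon receptor (AHR) is a ligand-activated transcription factor that waits in the cytoplasm with Hsp90 and, once bound by a dioxin, enters the nucleus, pairs with ARNT and binds response elements near its target genes. Its best known targets are cytochrome P450 enzymes of the CYP1 family and its own repressors, AHRR and TIPARP. In zebrafish, Ahr2 carries most of the toxic response to TCDD, and in exposed larvae the jaw cartilage is short and the transcription factor gene sox9b is known to be reduced. The comparison asks which transcripts differ in the jaw within hours of exposure.

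All values are log2 of the deposited intensity of a probe set, and a difference is TCDD minus vehicle, so that a difference of 1 is a 2-fold change. Array medians lay between 25.9 and 27.9 on the linear intensity scale in TCDD jaws and between 26.1 and 27.8 in vehicle jaws, and correlations between any 2 of the 6 arrays were 0.973 to 0.990. TCDD array 3 differed from the other TCDD arrays by a median absolute log2 difference of 0.271 and 0.294, against 0.135 between TCDD arrays 1 and 2. Vehicle array 1 differed from the other vehicle arrays by 0.184 and 0.251, against 0.147 between vehicle arrays 2 and 3. No detection calls were used, so the 3 probe sets for fluorescent proteins, which wild-type fish lack, served as a guide to background. They read 2.15 to 2.74 at 4 h. Tests were run with limma over all 24 arrays, and "called" means a Benjamini-Hochberg adjusted p under 0.05 over 15502 probe sets. Each p-value therefore reflects how far arrays of 10 pooled jaws differ from each other, and the small number of arrays limits the precision. The SE of a difference comes from the same fit, which pools the spread within all 8 groups. It is not the spread of the 6 arrays at 4 h alone. Of the probe sets tested, 10795 carried 1 gene symbol and 4572 carried none.

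TCDD jaws at 4 h had 72 called probe sets, 0.464% of those tested. Of these, 50 were higher with TCDD (0.323%) and 22 were lower (0.142%), and in all 72 the 3 TCDD arrays did not overlap the 3 vehicle arrays, as was so for 6.14% of all probe sets (3.61% higher with TCDD). The rises had a median difference of 1.18 and reached 3.78, and 11 of them were at least 4-fold. The falls had a median difference of -1.13 and reached -2.35, and 1 of them, sox9b, was at least 4-fold. Over all probe sets the median difference was -0.003. The counts depended on single arrays: leaving out TCDD array 1 gave 38 calls, leaving out vehicle array 1 gave 39 and leaving out vehicle array 3 gave 41. With each of the 6 arrays left out in turn, 24 of the 50 rises and 4 of the 22 falls kept their call every time. Those refits still took their spread from the arrays of the other times too. A fit of the 6 arrays at 4 h alone had 4 residual degrees of freedom, against 16 in the main fit. In it, 5 of the 50 rises and 1 of the 22 falls passed.

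**Figure D1:**
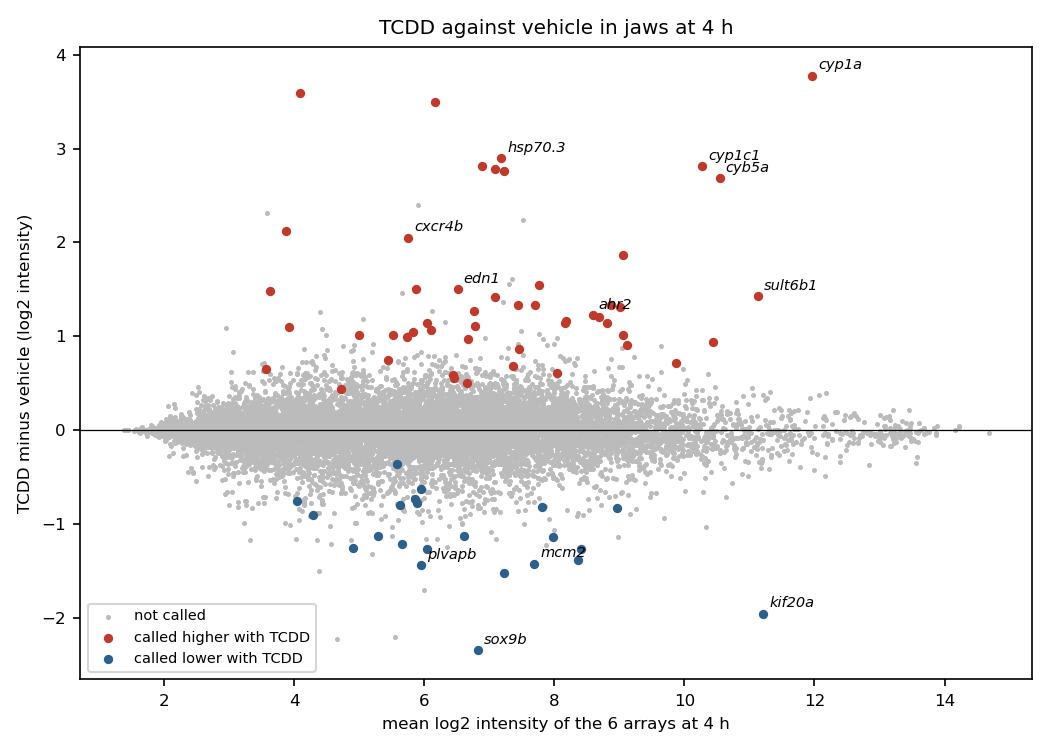
Difference between TCDD and vehicle jaws at 4 h (vertical axis, log2 intensity) against the mean log2 intensity of the 6 arrays (horizontal axis), with 1 point per probe set. Called rises (red, 50) include cyp1a at 3.78 and cyb5a at 2.69, and called falls (blue, 22) include sox9b at -2.35 and kif20a at -1.96.

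Known target genes of the AHR rose. cyp1a, the cytochrome P450 whose induction is the classic sign of AHR activation, stood at 13.79, 13.99 and 13.77 in the TCDD arrays, against 9.54, 10.87 and 9.82 in the vehicle arrays. All TCDD arrays lay well above all vehicle arrays, and the vehicle arrays spread more than the TCDD arrays. The difference was 3.78 ± 0.30 (limma SE), a 13.7-fold rise with a limma adjusted p of 1.42e-06. cyp1c1, a second enzyme of that family, read 11.82, 11.93 and 11.29 in TCDD jaws, against 8.51, 9.39 and 8.71 in vehicle jaws, a rise of 2.81 ± 0.29 (7.03-fold, limma adjusted p = 2.97e-05). Its other probe sets were not called: one averaged 7.10 ± 2.77 in TCDD jaws and 4.70 ± 1.1 in vehicle jaws (SD, n = 3 each), and the other averaged 2.98 and 2.80, near the reporter level.

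tiparp, an ADP-ribosyltransferase that in mammals represses AHR, measured 9.0, 8.63 and 7.26 in the TCDD arrays and 4.99, 5.73 and 5.73 in the vehicle arrays. The third TCDD array was the lowest of its group but still above every vehicle array, and the rise was 2.81 ± 0.40 (7.02-fold, limma adjusted p = 0.00127). ahr2 itself read 9.64, 9.34 and 8.62 in TCDD jaws, against 7.63, 8.16 and 8.15 in vehicle jaws. This rise of 1.22 ± 0.25 (2.34-fold, limma adjusted p = 0.0302) was not called without TCDD array 1 (0.205), TCDD array 2 (0.107), vehicle array 1 (0.205) or vehicle array 3 (0.071). Of 7 probe sets in a list of AHR target genes, 3 were called higher (cyp1a, cyp1c1 and tiparp), against 0.323% of all probe sets, and 0 lower. This and the later lists were chosen with earlier results of these data known, so such shares are not an independent test. The AHR target list's median difference was 2.40, the value of an uncalled cyp1c1 probe set. The list covered 5 of its 14 genes. Among the rest, nqo1, a quinone reductase, averaged 10.81 ± 0.27 in TCDD jaws and 10.79 ± 0.13 in vehicle jaws (SD, n = 3 each), and cyp1d1 averaged 2.42 in both, near the reporters. cyp1b1, cyp1c2, ahrra and ahrrb matched 0 probe sets. Of 11 probe sets for the receptor and its partners, ahr2 was the 1 called; hsp90ab1, the chaperone, averaged 12.80 ± 0.06 in TCDD jaws and 12.72 ± 0.08 in vehicle jaws (SD, n = 3 each), while ahr1a and both arnt2 probe sets lay at or near the reporter level in both groups.

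Other enzymes and carriers of small molecules also rose. cyb5a, cytochrome b5, which passes electrons to P450 enzymes, read 12.02, 12.01 and 11.63 in TCDD jaws, against 9.06, 9.17 and 9.36 in vehicle jaws, a rise of 2.69 ± 0.22 (6.44-fold, limma adjusted p = 1.42e-06). sult6b1, a cytosolic sulfotransferase, read 12.07, 11.67 and 11.78 with TCDD and 10.58, 10.36 and 10.31 with vehicle, a rise of 1.43 ± 0.17 (2.69-fold, limma adjusted p = 0.000186). Both groups were tight for these enzymes and lay far apart. rhcgb, an ammonia transporter of the Rh family that works in gill and skin ionocytes, rose by 1.48 ± 0.19 (limma adjusted p = 0.000338), with TCDD arrays at 3.98 to 4.78 and vehicle arrays at 2.74 to 3.14. The vehicle arrays lay near the reporter level, so no fold is given, and the difference ran from 0.65 to 1.70 over the refits.

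Genes of cell signalling were among the rises. cxcr4b, the receptor for the chemokine Cxcl12, which guides migrating cells, stood at 6.97, 6.42 and 6.93 in TCDD jaws, against 4.73, 4.90 and 4.54 in vehicle jaws. The groups were clearly apart, and the difference of 2.05 ± 0.16 (4.14-fold) had the smallest limma p of all probe sets, adjusted to 1.42e-06. ccl27a, a chemokine ligand, read 9.12, 7.93 and 8.37 with TCDD and 4.56, 6.02 and 6.49 with vehicle, a wider spread, with a rise of 2.79 ± 0.42 (6.89-fold, limma adjusted p = 0.00253). edn1, endothelin 1, the ligand that sets ventral fate in the pharyngeal arches, read 7.32, 7.37 and 7.10 in TCDD jaws, against 5.95, 5.93 and 5.41 in vehicle jaws, a rise of 1.5 ± 0.20 (2.83-fold, limma adjusted p = 0.000729). It was the 1 called of 29 probe sets for neural crest and jaw patterning genes, against 0.323% called higher over all probe sets. The median of that list was -0.05.

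Smaller rises were seen for net1, a guanine nucleotide exchange factor for RhoA, at 10.17, 10.12 and 10.40 in TCDD jaws, against 9.47, 9.59 and 9.50 in vehicle jaws (0.71 ± 0.07, 1.63-fold, limma adjusted p = 3.15e-05). sh3glb1a, an endophilin that shapes membranes, rose by 0.60 ± 0.09 (1.52-fold, limma adjusted p = 0.00285). Genes of transcription factors rose as well. lhx8a, a LIM homeobox gene, rose by 1.05 ± 0.15 (2.07-fold), klf2b, a Krüppel-like factor that in endothelium responds to flow, by 1.2 ± 0.19 (2.30-fold), and foxo3b, a forkhead factor, by 0.90 ± 0.13 (1.87-fold), with limma adjusted p of 0.00132 to 0.00285. foxo3b had the least spread of the named genes, with 9.54, 9.60 and 9.54 in TCDD jaws and 8.63, 8.65 and 8.70 in vehicle jaws. A second foxo3b probe set averaged 3.09 ± 0.82 in TCDD jaws and 2.93 ± 0.39 in vehicle jaws, near the reporters. For lhx8a, a second probe set differed by 0.79 ± 0.31 (SE) without being called (limma adjusted p = 0.624). klf2b was the 1 called of 28 probe sets for immediate early genes, against 0.323% called higher over all probe sets. The median of that list was -0.02.

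**Figure D2:**
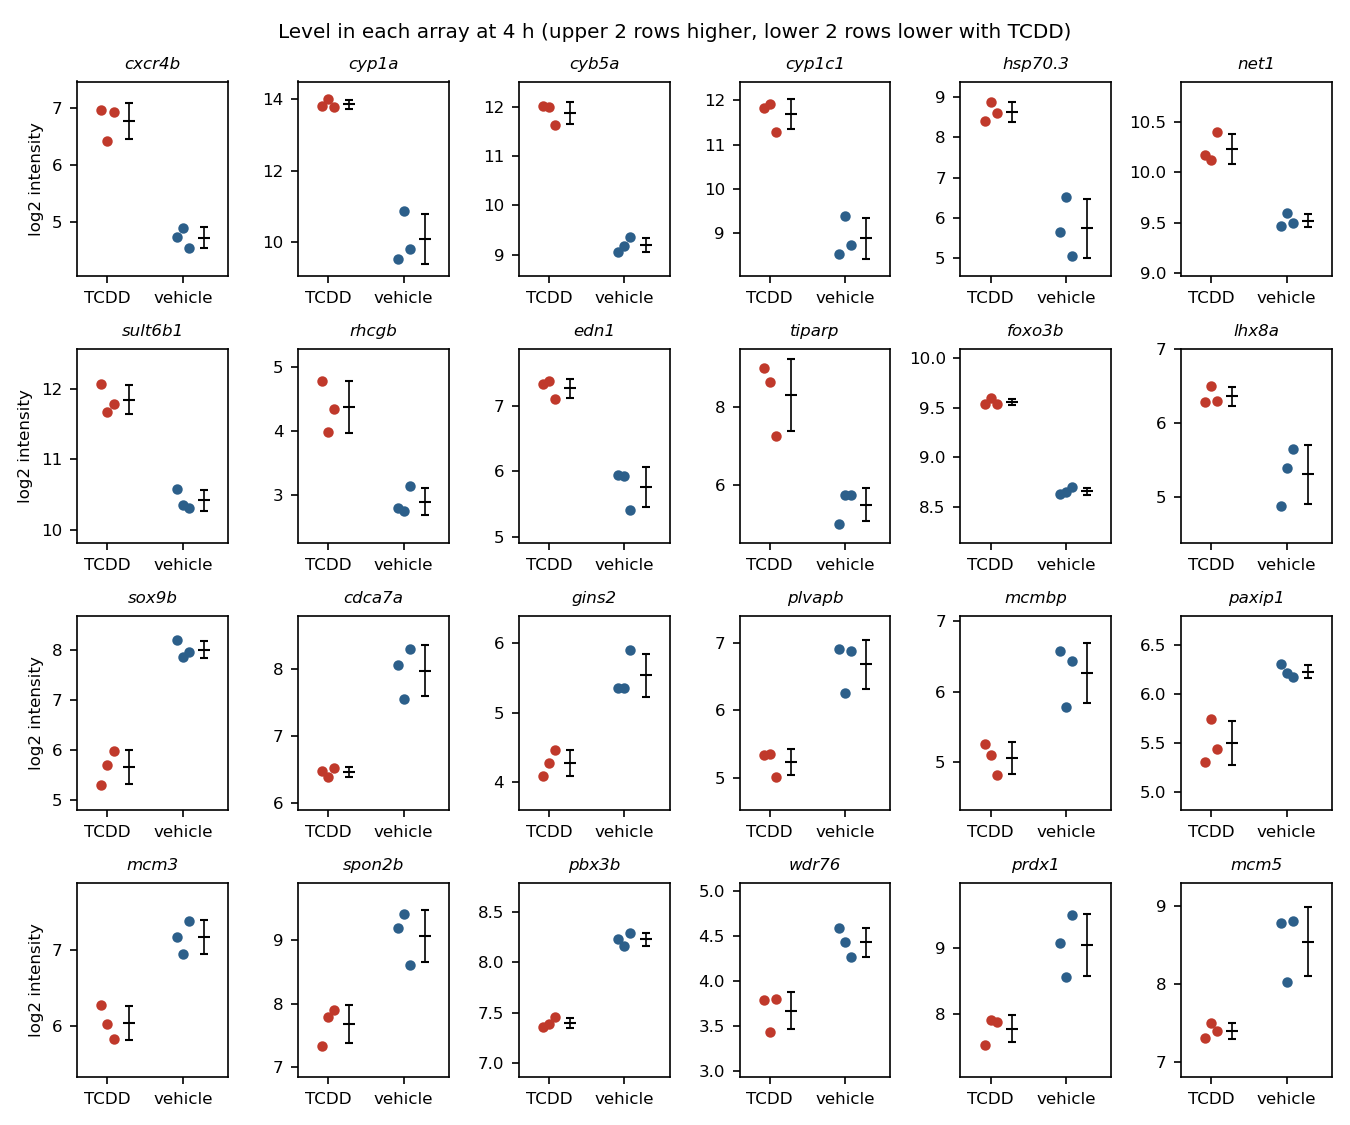
Log2 intensity (vertical axis, each panel on its own scale) of named genes on the 3 TCDD arrays and the 3 vehicle arrays at 4 h, with 1 point per array and a black mark with bars at each group's mean ± SD (n = 3). Genes were named only if their groups did not overlap, so no panel shows overlap. cyp1a lies at 13.77 to 13.99 in TCDD jaws and 9.54 to 10.87 in vehicle jaws.

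Heat shock genes of the inducible Hsp70 family rose. The hsp70.3 probe set read 8.40, 8.89 and 8.60 in TCDD jaws, against 5.65, 6.51 and 5.05 in vehicle jaws. All TCDD arrays were above all vehicle arrays by a wide gap, with a rise of 2.89 ± 0.30 (7.44-fold, limma adjusted p = 2.97e-05). A probe set that carries several hsp70 symbols rose by 2.76 ± 0.42, and since the copies are nearly identical in sequence, the signal cannot be assigned to 1 of them. dnajb1b, an Hsp40 that feeds clients to Hsp70, read 8.09, 8.74 and 8.78 with TCDD and 7.28, 7.26 and 6.43 with vehicle, a rise of 1.54 ± 0.27 (2.92-fold, limma adjusted p = 0.00792). It was not called without TCDD array 3 (0.0524) or vehicle array 3 (0.071). Of 14 probe sets in the heat shock and unfolded protein list, these 2 genes were called higher, against 0.323% of all probe sets. In the list 0 were called lower, and its median was 0.14. Constitutive chaperones of the list were not called: hspa8 averaged 13.27 ± 0.14 in TCDD jaws and 13.21 ± 0.08 in vehicle jaws, and hspa5, the chaperone of the endoplasmic reticulum, averaged 10.60 ± 0.21 and 10.30 ± 0.18 (SD, n = 3 each).

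A further large rise came from a probe set that the platform annotation assigns to mpx, myeloperoxidase, an enzyme of neutrophils. It read 8.59, 7.95 and 7.17 in TCDD jaws, against 3.12, 5.26 and 4.86 in vehicle jaws, a difference of 3.49 ± 0.53 (limma adjusted p = 0.00253). The 3 other probe sets annotated to mpx averaged 2.34 to 2.80 in TCDD jaws and 2.36 to 2.80 in vehicle jaws, at the reporter level. The risen probe set and these 3 all share the cluster part of their platform identifier with the cyp1a probe set. Which transcript each of them reports is therefore uncertain. The risen probe set was the 1 called of 15 probe sets for myeloid and inflammatory genes, against 0.323% called higher over all probe sets. The median of that list was -0.01.

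The largest fall was in sox9b, a transcription factor gene needed for cartilage and neural crest derivatives. It stood at 5.28, 5.70 and 5.96 in TCDD jaws, against 8.19, 7.86 and 7.95 in vehicle jaws. Every TCDD array was far below every vehicle array, and the fall was -2.35 ± 0.20 (limma SE, 5.10-fold lower, limma adjusted p = 1.94e-06). A second sox9b probe set averaged 2.27 ± 0.08 in TCDD jaws and 2.33 ± 0.10 in vehicle jaws, within the reporter range, and gave no information. Since the jaws were analysed in bulk, fewer cells of a type and less RNA per cell cannot be told apart, for this and every later fall.

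sox9b was the 1 called of 26 cartilage probe sets, against 0.142% called lower over all probe sets. The median difference of the cartilage list was 0.01. col2a1a, the type II collagen of cartilage matrix and a known SOX9 target in mammals, averaged 13.39 ± 0.30 in TCDD jaws and 13.30 ± 0.17 in vehicle jaws (SD, n = 3 each), a difference of 0.10 ± 0.18. matn1, a matrilin of cartilage, averaged 13.32 ± 0.21 in TCDD jaws and 13.10 ± 0.24 in vehicle jaws. The summed intensity of the cartilage list was 37657 to 58512 in TCDD jaws and 41691 to 50818 in vehicle jaws, so the groups overlapped, and cartilage matrix genes lay far above the reporters in both. sox9a averaged 2.61 ± 0.21 and 2.48 ± 0.03, at the reporter level. Of 19 bone and osteoblast probe sets, 0 were called in either direction, against 0.464% called over all probe sets. runx2a, a bone factor, averaged 8.23 ± 0.17 in TCDD jaws and 8.09 ± 0.44 in vehicle jaws with its brighter probe set, sp7 averaged 2.39 in both groups, and sparc, a matrix protein, averaged 12.46 ± 0.07 in TCDD jaws and 12.48 ± 0.23 in vehicle jaws.

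Cell cycle genes that act in DNA replication were among the falls. Of 30 cell cycle probe sets (22 genes), 5 were called lower and 0 higher, against 0.142% lower over all probe sets, and the list's median was -0.22. This list too was chosen with earlier results of these data known, so its share is not an independent test. The called genes were mcm2, mcm3 and mcm5, subunits of the helicase that opens replication origins, cdc6, which loads that helicase, and, outside replication itself, ccnd1, a cyclin that acts in G1. mcm5 read 7.30, 7.51 and 7.40 in TCDD jaws, against 8.79, 8.03 and 8.81 in vehicle jaws, a fall of -1.14 ± 0.23 (2.2-fold lower, limma adjusted p = 0.0283). mcm2 read 6.81, 6.75 and 7.37 with TCDD and 8.88, 7.87 and 8.44 with vehicle, a fall of -1.42 ± 0.31 (2.68-fold lower, limma adjusted p = 0.0450). The groups did not overlap for either gene, and vehicle array 2 was the lowest of its group in both.

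mcm3 fell by 1.13 ± 0.20 (2.18-fold lower, limma adjusted p = 0.00986), cdc6 by 0.91 ± 0.19 (1.88-fold lower, 0.0347) and ccnd1 by 0.83 ± 0.17 (1.78-fold lower, 0.0302). A second ccnd1 probe set differed by -0.70 ± 0.20 without being called, and a second mcm3 probe set lay at the reporter level. Other replication members, named after their values were seen, were lower in mean but not called: mcm4 by -0.88 ± 0.26 (limma adjusted p = 0.268), mcm7 by -0.77 ± 0.19 (0.117), and pcna, the sliding clamp, by -0.72 ± 0.20 (0.191). Of the list's members that act in mitosis, named here after their values were seen, ccnb1 differed by 0.05 ± 0.28, cdk1 by -0.07 ± 0.26, plk1 by 0.23 ± 0.31 and cdc20 by 0.33 ± 0.24, none called. kif20a, a mitotic kinesin outside the list, was called lower by -1.96 ± 0.42 (limma adjusted p = 0.0414), a call lost whichever of the 6 arrays was left out (up to 0.184). Its called probe set averaged 10.23 in TCDD jaws and 12.18 in vehicle jaws, while a second averaged 2.77 and 2.74, at the reporter level. With the called probe set counted, mitotic genes did not all go one way, and no test set them against the replication genes. In all, 23 of the 30 probe sets had a lower mean with TCDD and 7 a higher one, against 52.4% lower over all probe sets. TCDD arrays lay below vehicle arrays without overlap for 12 of the 30, against 2.53% of all probe sets.

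Each of these calls was lost without some single array. Leaving out TCDD array 1 or 2, or vehicle array 1 or 3, gave 1 called member, and leaving out TCDD array 3 or vehicle array 2 gave 3. A fixed term for the replicate number gave 2. The largest adjusted p without an array was 0.0782 for mcm3 (vehicle array 3), 0.184 for mcm5 (vehicle array 1), 0.205 for ccnd1 (TCDD array 1), 0.181 for cdc6 (vehicle array 3) and 0.292 for mcm2 (vehicle array 1). The summed intensity of the list was 3418 to 4503 in TCDD jaws and 5668 to 7412 in vehicle jaws, with no overlap. Neural markers moved the same way in these arrays: of 28 probe sets, 0 were called, 24 had a lower mean with TCDD (52.4% of all probe sets did), the median difference was -0.50, and the sum was 5161 to 7146 in TCDD jaws, against 6172 to 9728 in vehicle jaws. snap25b, a synaptic gene, averaged 7.03 ± 0.62 in TCDD jaws and 7.80 ± 0.27 in vehicle jaws. The part of remaining nerve tissue in the replication falls was not tested.

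**Figure D3:**
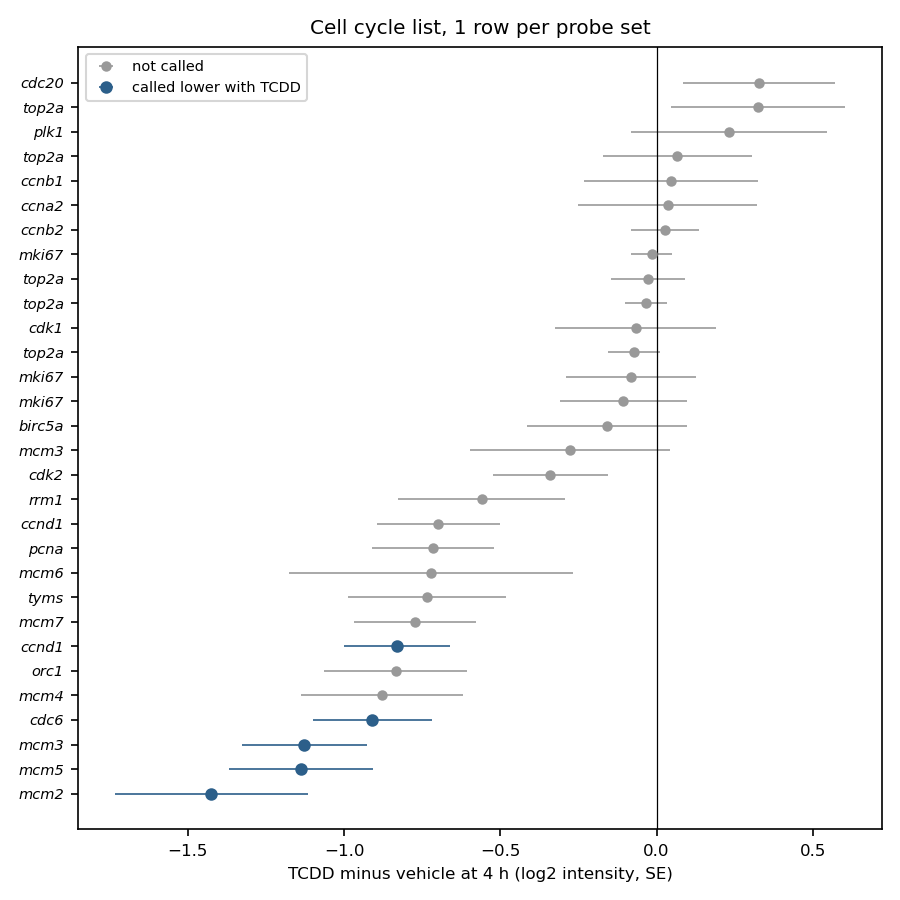
Difference between TCDD and vehicle jaws at 4 h (horizontal axis, log2 intensity, bars are ± SE from limma) for the 30 probe sets of the cell cycle list, 1 row each. The 5 called falls (blue) run from -0.83 to -1.42. Of the 30 probe sets 23 lie below 0, and ccnb1, cdk1, plk1 and cdc20, picked after their values were seen, lie between -0.07 and 0.33.

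The other named falls were chosen by the smallest p. cdca7a, a cofactor of the chromatin remodeller Hells, read 6.48, 6.38 and 6.52 in TCDD jaws, against 8.07, 7.56 and 8.31 in vehicle jaws, a fall of -1.52 ± 0.24 (2.87-fold lower, limma adjusted p = 0.00329). gins2, a subunit of the replicative helicase complex, fell by 1.26 ± 0.20 (2.39-fold lower, limma adjusted p = 0.00467), and mcmbp, an Mcm-binding protein, by 1.21 ± 0.21 (2.32-fold lower, limma adjusted p = 0.00694). These 3 had non-overlapping groups, as the rule for named genes required, and mcmbp was not called without vehicle array 1 (0.0571) or vehicle array 3 (0.0535). paxip1, an adaptor in DNA damage signalling, fell by 0.73 ± 0.13 (limma adjusted p = 0.00767, not called without TCDD array 1, 0.0682, or vehicle array 1, 0.0517), and wdr76 by 0.76 ± 0.14 (limma adjusted p = 0.0176, up to 0.115 without vehicle array 1).

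plvapb, the protein of endothelial diaphragms, read 5.33, 5.35 and 5.02 in TCDD jaws, against 6.90, 6.26 and 6.87 in vehicle jaws, a fall of -1.44 ± 0.24 (2.72-fold lower, limma adjusted p = 0.00601). Of 8 endothelial marker probe sets 0 were called, against 0.464% called over all probe sets. Their sum was 226 to 314 in TCDD jaws and 258 to 303 in vehicle jaws. spon2b, a spondin of the extracellular matrix, fell by 1.39 ± 0.26 (limma adjusted p = 0.0132, not called without TCDD array 1, 0.108, vehicle array 1, 0.0757, or vehicle array 2, 0.0683), and pbx3b, a TALE homeobox gene, by 0.82 ± 0.16 (limma adjusted p = 0.0176, up to 0.0953 without TCDD array 1). yap1, the transcriptional effector of the Hippo pathway, had the smallest fall of the named genes, 0.36 ± 0.08 (limma adjusted p = 0.0335, up to 0.219 without vehicle array 1), and a second yap1 probe set differed by -0.28 ± 0.14 without being called. prdx1, a peroxiredoxin that removes peroxide, read 7.53, 7.90 and 7.88 with TCDD and 9.08, 8.55 and 9.49 with vehicle, a fall of -1.27 ± 0.25 (2.42-fold lower, limma adjusted p = 0.0221; up to 0.147, without TCDD array 1). Its other 2 probe sets differed by -0.94 and -1.06, not called. prdx1 was the 1 called of 16 probe sets for genes of the NRF2 oxidative stress response, against 0.142% called lower over all probe sets. In that list gstp1.2 averaged 12.42 ± 0.20 in TCDD jaws and 12.58 ± 0.11 in vehicle jaws.

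Beyond the rule for named genes, and chosen after their values were seen, other called rises were abca12, a lipid transporter of skin (1.31 ± 0.22), pik3r3b, a regulatory subunit of PI3 kinase (1.34 ± 0.23), cxxc5a (1.14 ± 0.19), ext1c, a heparan sulfate polymerase (1.27 ± 0.22), il17rd, a feedback inhibitor of FGF signalling (0.97 ± 0.17), and ccn2a, a matricellular growth factor (0.94 ± 0.18). Other called falls were dnmt1, the maintenance DNA methyltransferase (-1.27 ± 0.27), orc6, of the origin recognition complex (-1.13 ± 0.24), prim1, a primase subunit (-0.78 ± 0.17), cdca7b (-0.80 ± 0.17), hells (-0.63 ± 0.14) and kif20a, a mitotic kinesin (-1.96 ± 0.42). Of these 12 genes, abca12 alone kept its call without each of the 6 arrays. orc6 and kif20a lost it whichever array was left out (adjusted p up to 0.203 for orc6), and ccn2a (up to 0.116), dnmt1 (up to 0.188), cdca7b (up to 0.292) and hells (up to 0.257) kept it in 1 of the 6 refits. prim1 lost it without TCDD array 1 or 3 or vehicle array 1 or 3 (up to 0.239), cxxc5a (0.0540) and ext1c (0.0572) without TCDD array 1, il17rd without vehicle array 1 (0.0516) and pik3r3b without vehicle array 3 (0.071). A second kif20a probe set averaged 2.77 in TCDD jaws and 2.74 in vehicle jaws, at the reporter level. Of the 50 rises, 16 probe sets had no symbol, and the largest, DrAffx.2.29.S1_at, read 5.24, 6.40 and 6.03 in TCDD jaws, against 2.38, 2.28 and 2.23 in vehicle jaws, where it lay under the brightest reporter, so that its difference of 3.59 ± 0.38 gives no dependable fold.

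Lists for the other tissues the dissected head could hold gave few calls. Of 22 gene lists, 13 had 0 called probe sets among 244, against 0.464% called over all probe sets. At that share, 0 calls do not set a list apart from all probe sets. Medians of the 13 ran from -0.50 (neural) to -0.003 (bone), and the next lowest after neural was -0.10. At an unadjusted limma p under 0.05, 4 of the 244 were higher and 11 lower, 6 of those 11 neural. Over all 15502 probe sets, 534 were higher and 388 lower at that threshold. Of 26 skeletal muscle probe sets 0 were called, and actc1b, a muscle actin, averaged 13.42 ± 0.06 in TCDD jaws and 13.48 ± 0.02 in vehicle jaws. Of 25 epidermal probe sets 0 were called, and krt4, a keratin of surface epithelium, averaged 13.72 ± 0.12 and 13.74 ± 0.13 (SD, n = 3 each). Eye genes were uneven between arrays: their sum was 235 to 1590 in TCDD jaws and 203 to 846 in vehicle jaws, with 0 of 13 called, and opn1sw1, an ultraviolet cone opsin, averaged 7.30 ± 1.95 and 7.40 ± 1.61. Heart genes were uneven too, and myl7 averaged 5.86 ± 2.75 in TCDD jaws and 6.12 ± 3.11 in vehicle jaws.

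**Figure D4:**
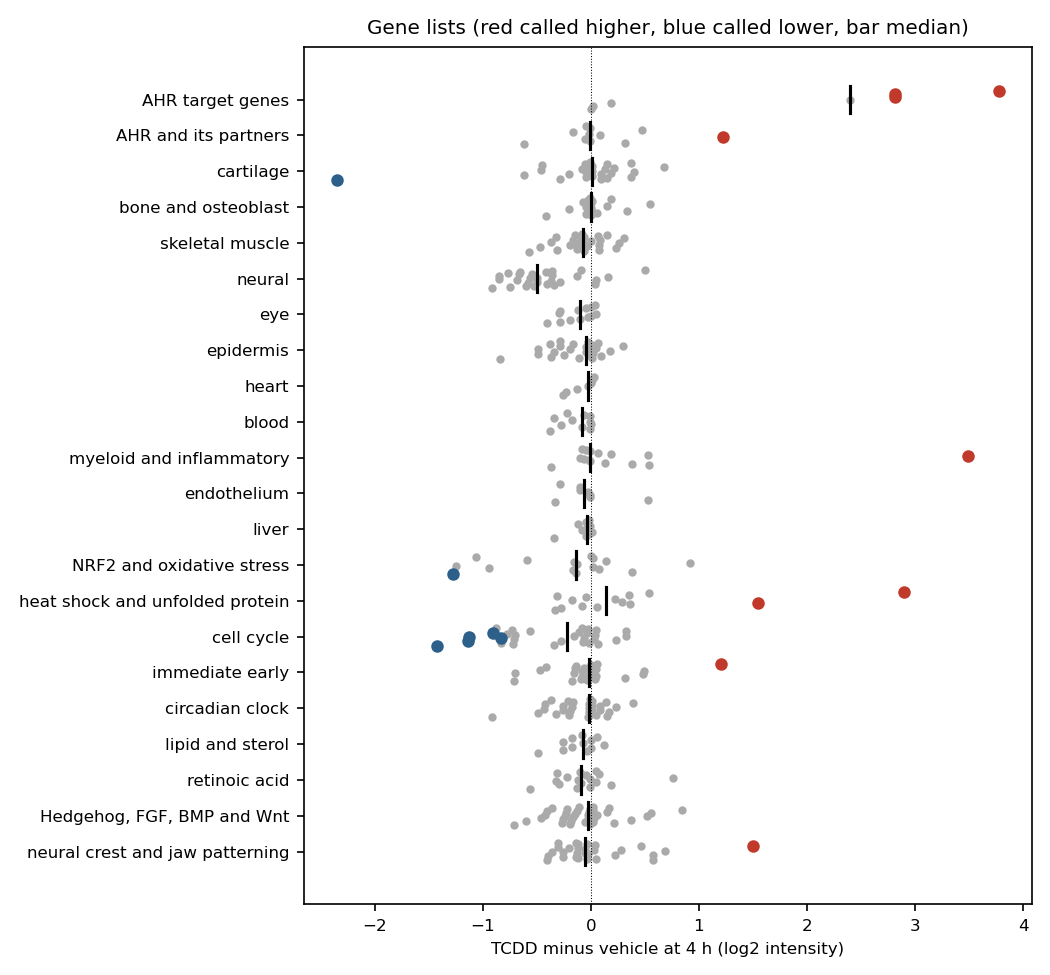
Differences between TCDD and vehicle jaws at 4 h (horizontal axis, log2 intensity) for the probe sets of each gene list, with 1 point per probe set, called rises in red, called falls in blue, and a bar at the median. The AHR target list has a median of 2.40, the neural list -0.50 and the cell cycle list -0.22.

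The differences at 4 h were then set against those at the other times, each taken within its own time because array levels differed between times. At 1 h 18 probe sets were called (0.116%), of which 0.103% of all were higher and 0.0129% lower with TCDD. At 2 h 14 were called (0.0903%; 0.0839% higher and 0.00645% lower), and at 12 h 117 (0.755%; 0.387% higher and 0.368% lower). Of the 50 rises at 4 h, 9 were also called at 1 h, 10 at 2 h and 20 at 12 h, and 27 at no other time. Of the 22 falls, 0 were also called at 1 h or 2 h, 4 at 12 h (sox9b, plvapb, spon2b and ccnd1) and 18 at no other time. A call at 4 h alone does not show a difference between times, so the difference of the effects was tested. Over all 15502 probe sets the effect at 4 h differed from the mean of the others for 1 probe set (0.00645%), hsp70.3.

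hsp70.3 differed by 2.89 at 4 h, against -0.48 at 1 h, 0.30 at 2 h and 0.40 at 12 h, so its effect at 4 h exceeded the mean of the other times by 2.82 (limma adjusted p = 0.00230). Its excess over 1 h was 3.38 (limma adjusted p = 0.00163) and over 12 h 2.5 (0.0327). As levels, hsp70.3 averaged 7.02 at 1 h, 6.74 at 2 h, 8.63 at 4 h and 3.45 at 12 h in TCDD jaws, and 7.5 at 1 h, 6.43 at 2 h, 5.74 at 4 h and 3.05 at 12 h in vehicle jaws. Leaving out replicate 1 or replicate 3 of every group gave 0 probe sets in the comparison with the mean of the other times. The effect at 4 h differed from that at 1 h for 8 probe sets (0.0516%), from that at 12 h for 8 (both with 0.0258% in each direction) and from that at 2 h for 0. Against 2 h, 560 of the 15502 probe sets had an unadjusted limma p under 0.05. As a share of the 15502 this is less than 0.05, the share expected if no effect differed.

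Against 1 h, the effect at 4 h was larger by 2.02 for cxcr4b (2.05 at 4 h, 0.03 at 1 h, limma adjusted p = 0.000876) and by 0.62 for net1 (adjusted p = 0.0352). It was lower by -1.99 for sox9b (-2.35 at 4 h, -0.36 at 1 h, adjusted p = 0.00605), by -1.95 for cdca7a (-1.52 at 4 h, 0.43 at 1 h, adjusted p = 0.0365) and by -1.35 for wdr76 (-0.76 at 4 h, 0.59 at 1 h, adjusted p = 0.0113). The latter genes were thus higher in mean with TCDD at 1 h, without being called there. Against 12 h, the difference between TCDD and vehicle was smaller at 4 h for cyp1a, 3.78 at 4 h and 9.02 at 12 h, a gap of -5.24 (adjusted p = 4.45e-06). cyb5a had a gap of -2.2 (adjusted p = 0.00581), cyp1c1 of -2.32 (adjusted p = 0.0393) and sult6b1 of -1.77 (adjusted p = 0.00532). In the deposited levels, the TCDD means of these genes were not higher at 12 h than at 4 h, and their vehicle means were lower. cyp1a averaged 13.85 at 4 h and 13.65 at 12 h in TCDD jaws, and 10.08 at 4 h and 4.63 at 12 h in vehicle jaws. Its vehicle means were 11.24 at 1 h and 12.23 at 2 h. For cyb5a the TCDD means were 11.88 at 4 h and 11.55 at 12 h, and the vehicle means 9.20 and 6.66. For cyp1c1 the TCDD means were 11.68 and 11.28 and the vehicle means 8.87 and 6.15, and for sult6b1 the TCDD means were 11.84 and 10.74 and the vehicle means 10.42 and 7.54. Array medians differed between times, so these levels are set side by side without a test. A shift of scale between times was not separated from a change in either group. foxo3b ran the other way, with 0.90 at 4 h and -0.22 at 12 h, a gap of 1.12 (adjusted p = 0.0297). For sox9b the effect was -3.77 at 12 h, and its gap to 4 h was not called.

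**Figure D5:**
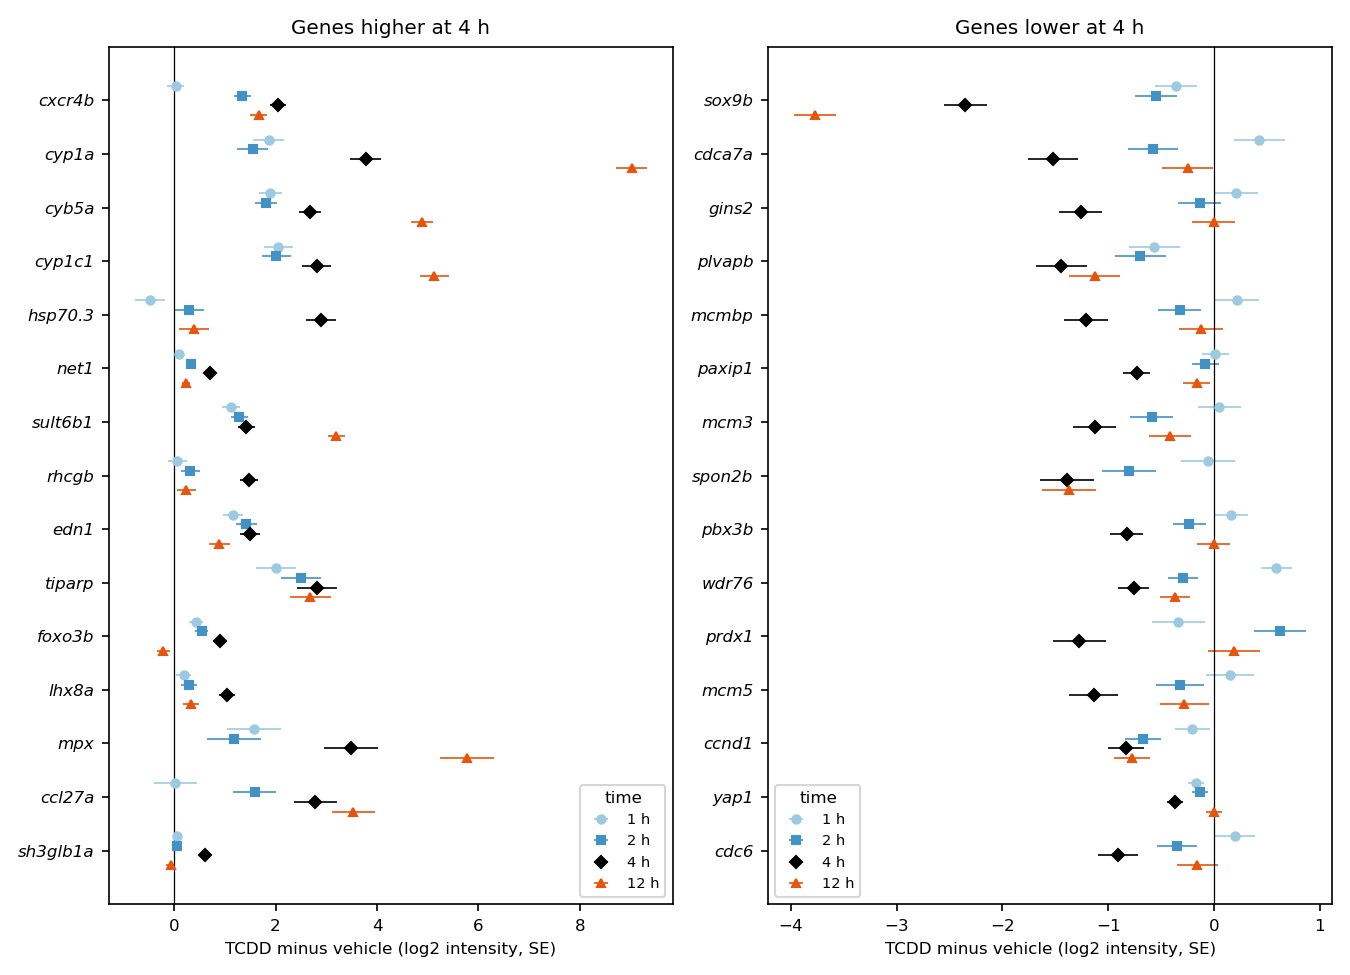
Difference between TCDD and vehicle jaws (horizontal axis, log2 intensity, bars are ± SE from limma) for named genes (rows; mpx as annotated), with a marker for each of 1, 2, 4 and 12 h. cyp1a is at 3.78 at 4 h and 9.02 at 12 h, and hsp70.3 is at 2.89 at 4 h and between -0.48 and 0.40 at the other times.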

How the data were processed

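Jaw RNA was hybridized to 1-colour Affymetrix arrays, and the authors deposited linear intensities, one per probe set. RMA and GCRMA are named, without role, order or version, in the submitters' processing notes. Array medians were nearly equal within a time and differed between times, so comparisons were made within a time and scanner files were not used. Values were turned to log2 without an offset, after removal of 115 control probe sets. The fit used R 4.3.3 and limma 3.58.1 on 8 group means over 24 arrays (16 residual degrees of freedom), with Benjamini-Hochberg adjustment over 15502 probe sets, and was tested on simulated data. Symbols came from the platform table, 10711 updated through gene identifiers. Named genes were up to 15 rises and 15 falls of smallest p with 1 symbol and no overlap, members of lists called or of highest level, and AHR and cartilage genes. Members and the 22 lists were chosen with earlier results of these data known. Refits used blocks (statmod 1.5.0), quantile normalization, an above-median filter, eBayes with trend, array weights, an offset of 16, the 6 arrays alone and single arrays or replicates left out.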

Additional observations from a re-analysis of the deposited data

Results flagged for a closer look

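The following probe sets were called at 4 h and had an effect of TCDD at 4 h that differed from the effect at another time by limma's test of the difference itself (adjusted over 15502 probe sets). Higher at 4 h than at 1 h were cxcr4b by 2.02, hsp70.3 by 3.38 and net1 by 0.62. Lower at 4 h than at 1 h were sox9b by -1.99, cdca7a by -1.95 and wdr76 by -1.35. At 1 h cdca7a differed by 0.43 and wdr76 by 0.59, neither called there. Below the effect at 12 h were cyp1a by -5.24, cyb5a by -2.2, cyp1c1 by -2.32 and sult6b1 by -1.77. For these 4 the TCDD means at 12 h were not above those at 4 h, and the vehicle means were lower at 12 h (for cyp1a, 13.85 at 4 h and 13.65 at 12 h in TCDD jaws, and 10.08 at 4 h and 4.63 at 12 h in vehicle jaws). Array medians differed between times, and levels were not tested across times. Above the effect at 12 h were hsp70.3 by 2.5 and foxo3b by 1.12. hsp70.3 also exceeded the mean of the other 3 times by 2.82.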

How the results depend on the processing

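In 18 refits cxcr4b, cyp1a, cyb5a, cyp1c1 and sox9b passed in every one. No call at 4 h changed sign, but the groups of all 72 calls did not overlap. Most of these refits therefore could not have changed a sign. Of 1530 gene-level values, 1077 kept their side of the threshold and 453 did not. The 1077 include probe sets of AHR, cartilage and bone genes that were not called at 4 h and stayed uncalled. All 453 were calls that were lost. Calls at 4 h numbered 72 in the main fit and 7 (6 higher, 1 lower) on the 6 arrays alone, of which 6 were among the 72. Without single arrays or replicates they numbered 16 to 77 (13 to 50 higher, 3 to 27 lower). Of the 72 main calls, 14 to 57 passed in those fits. On the 6 arrays alone, 631 of the 15502 probe sets had an unadjusted limma p under 0.05. As a share of the 15502 this is less than 0.05, the share expected if no probe set differed. The replicate block gave 62 calls (48 higher, 14 lower) as a fixed term and 61 as a random one, and as a fixed term gave 2 cell cycle falls in place of 5. The deviations of same-numbered arrays from their group means correlated at -0.471, -0.231 and -0.265 at 4 h, and 0 of 3 correlated best with their own number. At the other times these correlations ran from -0.197 to 0.168. With 3 arrays a group they cannot show whether the numbers pair the samples, and the labels do not tie the numbers to the time courses. Requiring 2-fold gave 13 falls. Effects at 4 h against the mean of the other times numbered 1, and 4 with quantile normalization, 2 above the median level, 2 with trend, 10 with array weights, 4 with the offset, and 0 to 6 without arrays. Against 1 h they numbered 8, and 22 with weights and 0 to 92 without arrays (92 without replicate 3). Against 2 h they numbered 0, and 2 above the median level, 2 with trend, 1 with weights, 3 with the offset and 0 to 4 without arrays. Against 12 h they numbered 8, and 13 above the median level, 5 with trend, 66 with weights and 0 to 10 without arrays. Cell cycle falls were 3 with quantile normalization, 3 with weights, 0 on the 6 arrays alone, 3 at 2-fold and 0 to 3 without arrays. Heat shock rises were 1 with weights, 0 on the 6 arrays alone and 1 to 2 without arrays. The cause of these changes was not tested. A covariate for the GAPDH 5' minus 3' signal, chosen after seeing the data, gave 83 calls and kept 69 of the 72. The search for motifs in promoters was not run.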

Other observations

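Of 38 probe sets for Hedgehog, FGF, BMP and Wnt genes, 0 were called. For this and the lists below, the share called over all probe sets was 0.464%. id1, a BMP target, averaged 10.98 ± 0.32 in TCDD jaws and 11.38 ± 0.14 in vehicle jaws (SD, n = 3 each). id2a averaged 9.10 ± 0.29 in TCDD jaws and 9.29 ± 0.14 in vehicle jaws. Outside the rule for named genes, and named after their values were seen, 2 more members were not called. fgf10a, an FGF ligand, differed by 0.56 ± 0.14 (SE), with a limma adjusted p of 0.0943, and gli3, a Hedgehog effector, by -0.47 ± 0.12 (0.139). Of 30 circadian clock probe sets 0 were called, and tefa averaged 9.09 ± 0.44 in TCDD jaws and 9.35 ± 0.35 in vehicle jaws. Of 17 retinoic acid probe sets 0 were called, and rarga, a retinoic acid receptor, averaged 8.78 ± 0.20 in TCDD jaws and 8.91 ± 0.35 in vehicle jaws. Of 12 lipid and sterol probe sets 0 were called, and apoeb averaged 11.60 ± 0.22 in TCDD jaws and 11.68 ± 0.44 in vehicle jaws. Blood genes had 0 of 11 called, with hbae3 at 11.79 ± 0.43 in TCDD jaws and 11.88 ± 0.59 in vehicle jaws, and liver genes 0 of 10.

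The GAPDH 5' minus 3' control signal, which can fall when RNA is degraded, was -2.16, -1.21 and -2.09 in the TCDD arrays and -1.18, -1.94 and -1.40 in the vehicle arrays, so the groups overlapped. The same signal of dap, a bacterial control transcript, was -0.79, -0.64 and -1.32 in the TCDD arrays. In the vehicle arrays it was -0.24, -1.35 and -0.59, again with overlap. What sets either signal was not tested.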
